A study of Mus musculus with 24 samples.

Results

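Pou5f1 (which encodes OCT4), Sox2, Nanog, Sall4 and Utf1 are transcription factor and chromatin genes by which mouse embryonic stem cells (ESCs) are recognised. Their 5 rows were taken by symbol from a deposited table of 54242 genes, and all 5 were among the 16447 genes tested. The table holds RNA-seq levels of CGR8, a feeder-independent mouse ESC line, in 24 libraries that form 8 groups of 3. The groups combine the siRNA (a non-targeting pool, si-CTL, or a pool against Rsl24d1, si-Rsl24d1), the rescue (without or with doxycycline-induced expression of ectopic RSL24D1) and the day. Day 0 cells were kept in serum and LIF, and day 4 cells had been treated with 10 nM retinoic acid (RA) for 4 days. Per the study's methods, the rescue line is a puromycin-selected population that carries the inducible open reading frame, and the cells without rescue are the same line without doxycycline, whereas the labels call their vector empty. Both siRNA groups went through the same transfection. Values are in log2(TPM + 1), where TPM are transcripts per 1000000 transcripts, and differences below are differences on this scale. A gene passed where limma, a linear model with moderated variances over all genes, gave a Benjamini-Hochberg adjusted p below 0.01, and it is called changed where the difference was also over 1.8-fold, which is 0.848 on the log2 scale.

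OCT4 is a POU domain factor that binds DNA together with SOX2, an HMG-box factor, at composite sites in which an octamer-like motif lies next to a SOX motif. NANOG is a homeodomain factor that shares many of these enhancers, and SALL4 is a zinc finger factor that recruits the NuRD deacetylase complex. UTF1 is a chromatin-associated protein of undifferentiated cells whose gene is itself regulated by OCT4 and SOX2. RSL24D1, the protein depleted here, is a factor of large ribosomal subunit assembly, and RA is a signal that drives ESCs out of self-renewal.

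In the gencode vM21 annotation of GRCm38, Pou5f1 lies on chromosome 17 from 35506018 to 35510772 (plus strand), Sox2 on chromosome 3 from 34650405 to 34652461 (plus strand), Nanog on chromosome 6 from 122707489 to 122714633 (plus strand), Sall4 on chromosome 2 from 168748332 to 168767943 (minus strand) and Utf1 on chromosome 7 from 139943789 to 139945112 (plus strand). Sox2 has 1 exon and sits inside the long noncoding gene Sox2ot on the same strand, whose exons do not overlap it. Antisense genes overlap Pou5f1 (Gm19553) and Sall4 (Gm14261), at mean levels of 0.161 and 0.207 TPM over the 24 libraries. The Nanog pseudogene Nanog-ps1 was above 0 in 6 libraries and Nanog-ps2 in 0.

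The stretch before the Nanog start site is shown because it holds the OCT-SOX element that ties the first 3 factors together, and because Nanog is the member that moved against the others on day 4. It is 250 bases on the plus strand of GRCm38.p6 (RefSeq), and capitals mark the element.
Nanog, chr6:122707239-122707488: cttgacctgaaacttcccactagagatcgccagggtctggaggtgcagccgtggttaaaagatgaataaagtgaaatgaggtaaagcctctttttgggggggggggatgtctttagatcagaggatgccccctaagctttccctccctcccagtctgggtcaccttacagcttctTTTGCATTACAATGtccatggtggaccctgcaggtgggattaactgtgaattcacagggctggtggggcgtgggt
The element runs from base -75 to base -62 relative to the first RefSeq start. It joins an OCT motif (TTTGCAT) and a SOX motif (ACAATG) on the same strand with 1 base of any kind between them, and this joint pattern was written down with the Nanog element known, so its match there is no finding. Of 32851 RefSeq promoter windows (250 bases before to 50 after a start) searched on both strands, 4.63% held the OCT motif, 12.6% the SOX motif and 2 the joint pattern, both of them Nanog windows. Windows were at hand for 4 of the 5 members, with none for Sall4. The Sox2 window, from 34649745 to 34650044, lies wholly before the gencode start of Sox2 (34650405). It holds the OCT motif on the opposite strand, given here in capitals with its flanks.
Sox2, chr3:34649888-34649910: cccctttcATGCAAAaccctctg
The Utf1 window holds neither motif, and of the Pou5f1 windows only that of a start site inside the gene holds the SOX motif. These matches are descriptions of letters, and no binding was measured in these libraries. Sequence outside the windows was not searched, so the absence of a motif holds for the windows only.

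The target of the siRNA was checked first. At day 0 without rescue, Rsl24d1 averaged 141 TPM with si-CTL and 35.7 TPM with si-Rsl24d1, which is 25.3% of control, and with rescue it averaged 151 and 107 TPM. At day 4 without rescue the siRNA groups stood at 97.9 and 95.1 TPM, so no depletion of the transcript was measured there (difference of -0.04). With rescue they stood at 118 and 131 TPM (difference of 0.15). In rescued groups the value can include the ectopic transcript, which the study describes as resistant to the siRNA. Depletion of the endogenous transcript cannot be read from it. TPM sum to 1000000 in every library and carry no depth, so the precision of each value rests on its 3 libraries, which the study calls biological replicates. The labels do not say that they were separate cultures, so the p-values measure the spread between these libraries, which may be technical. Each SE and p-value of the main fit uses a spread per gene that is pooled over the 8 groups. All 10 genes of a list of other ESC markers were detected in every group, Dppa5a at 2235 to 5346 TPM and Zfp42 at 328 to 637 TPM as group means, so markers of the labelled cell type were present on both days.

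Pou5f1 was the most abundant member, with group means between 475 and 1112 TPM, and ranked 190 in the table by its mean. Nanog (139 to 345 TPM), Utf1 (129 to 322 TPM) and Sox2 (170 to 282 TPM) lay close together, at ranks 503, 561 and 572, and their order differed between groups. The mean of Utf1 was above that of Sox2 in both si-Rsl24d1 groups at day 0 (313 against 280 TPM without and 322 against 250 TPM with rescue) and below it in both at day 4 (140 against 179 and 129 against 173 TPM). Sall4 was the lowest, at 23.4 to 57.0 TPM and rank 3531. The spread between libraries of a group, as a pooled SD on the log2 scale, was 0.044 for Pou5f1 and Nanog, 0.066 for Sox2, 0.068 for Utf1 and 0.189 for Sall4, so that Sall4 was measured with the least precision. For Pou5f1, Sox2 and Utf1 each day 0 library stood above each day 4 library, with Pou5f1 at 9.80 to 10.13 on day 0 and 8.82 to 9.10 on day 4. Nanog showed the inverse, at 7.08 to 7.56 on day 0 and 8.17 to 8.49 on day 4. The Sall4 ranges of the days overlapped slightly, at 5.20 to 6.13 on day 0 and 4.56 to 5.22 on day 4. In the order of its group means, Pou5f1 separated the 4 day 0 groups except for the neighbours si-CTL without and with rescue, whose libraries overlapped, and its 4 day 4 groups all overlapped their neighbours. In the Nanog order only the neighbours si-CTL and si-Rsl24d1 with rescue at day 4 overlapped, and in the Sox2 order no neighbours separated except the rescued from the unrescued day 0 groups and day 0 from day 4.

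**Figure D1:**
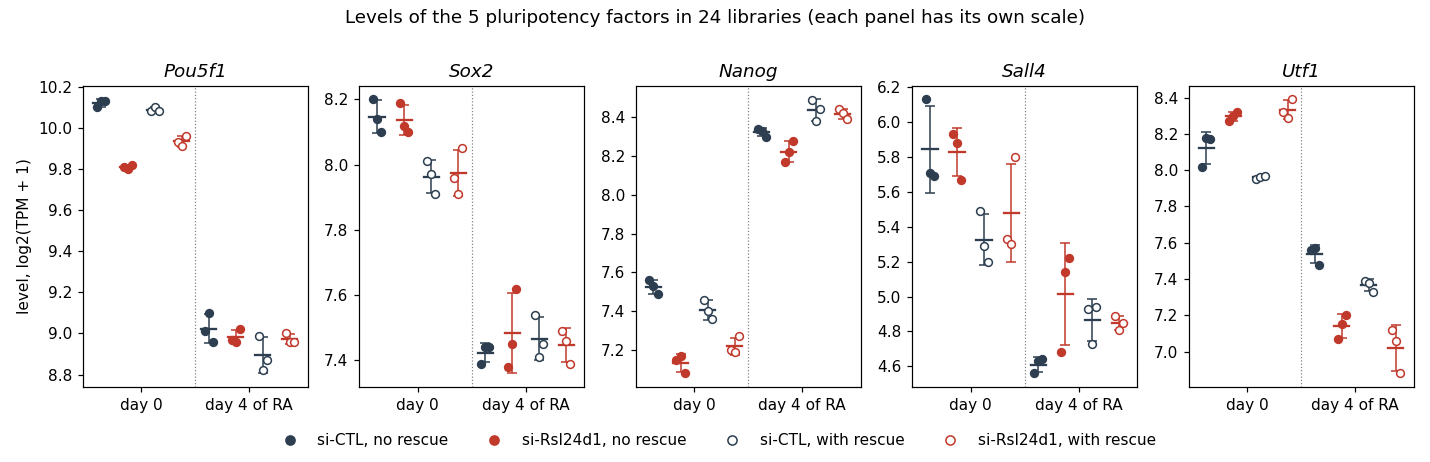
Levels in log2(TPM + 1) (vertical axis) of the 5 factors in 8 groups, with 1 point per library (n = 3), a bar at the mean and error bars of 1 SD. Day 0 groups are left and day 4 groups right of the dotted line, and Nanog is the factor whose day 4 libraries (8.17 to 8.49) stand above its day 0 libraries (7.08 to 7.56).

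The first comparison asks whether depletion of RSL24D1 in self-renewing ESCs altered the transcripts of the core factors. Pou5f1 and Nanog fell, by less than 1.8-fold, while the values of Sox2, Sall4 and Utf1 did not pass. Pou5f1 stood at 10.10, 10.13 and 10.13 in the si-CTL libraries without rescue and at 9.81, 9.80 and 9.82 in the si-Rsl24d1 libraries. The groups did not overlap, and each was tight. In TPM the means were 1112 ± 15.0 and 899 ± 6.83 (SD, n = 3), a level 80.8% of control and a log2 difference of -0.31 ± 0.04 (SE, limma adjusted p = 1.8e-06). Nanog stood at 7.56, 7.53 and 7.49 with si-CTL and at 7.15, 7.17 and 7.08 with si-Rsl24d1. Every depleted library lay below every control, and the level was 75.9% of control (-0.40 ± 0.04, limma adjusted p = 5.4e-08). These 2 of 5 members passed where 30.4% of all genes tested passed, and 0 of 5 were called changed against 4.18% of all genes, so with 5 genes the members' count lies close to this background.

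Sox2, the DNA-binding partner of OCT4, did not follow it in this comparison. Its libraries read 8.20, 8.14 and 8.10 with si-CTL and 8.19, 8.12 and 8.10 with si-Rsl24d1, which overlap almost fully, and the difference was -0.01 with a 95% interval from -0.12 to 0.10. Sall4 read 6.13, 5.71 and 5.69 with si-CTL and 5.93, 5.88 and 5.67 with si-Rsl24d1, a difference of -0.02 whose interval from -0.32 to 0.28 is wide enough to hold the change of Pou5f1. Utf1 read 8.02, 8.18 and 8.17 against 8.27, 8.30 and 8.32, so that each depleted library was above each control. Its difference of 0.17 ± 0.05 was opposite in sign to those of Pou5f1 and Nanog and missed the threshold (limma adjusted p = 0.014).

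With rescue, Pou5f1 and Nanog again fell with si-Rsl24d1 and Utf1 rose. Pou5f1 read 10.08, 10.10 and 10.08 with si-CTL and 9.93, 9.91 and 9.96 with si-Rsl24d1, without overlap (-0.15 ± 0.04, limma adjusted p = 0.0061). The call was lost in 9 of 13 alternative settings, 5 of them fits that left out 1 library (si-CTL library 1, 2 or 3, or si-Rsl24d1 library 1 or 2), with adjusted p from 0.0056 to 0.036 and differences from -0.17 to -0.14 over all 13. Nanog read 7.46, 7.40 and 7.36 with si-CTL and 7.20, 7.19 and 7.27 with si-Rsl24d1, a difference of -0.19 ± 0.04 (limma adjusted p = 0.0011). It passed in 12 of 13 alternatives and was lost with only the groups compared (adjusted p = 0.04; range over alternatives 1.9e-05 to 0.04). Utf1 read 7.95, 7.96 and 7.97 with si-CTL and 8.32, 8.29 and 8.39 with si-Rsl24d1. The si-Rsl24d1 libraries stood well above the tight si-CTL libraries, at 129% of their mean level (0.37 ± 0.05, limma adjusted p = 2.8e-05). In this comparison 3 of 5 members passed, against 13.7% of all genes, and 0 of 5 were called changed, against 1.36%. Sox2 (0.01, interval -0.10 to 0.12) and Sall4 (0.15, interval -0.15 to 0.45) did not pass.

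Whether the rescue altered the effect of the siRNA was tested as an interaction. At day 0 the effect on Nanog was 0.21 ± 0.05 less negative with rescue (limma adjusted p = 0.026) and that on Pou5f1 0.15 ± 0.05 less negative (limma adjusted p = 0.11), and neither passed. For all 5 members the count that passed was 0, with 3 at an unadjusted p below 0.05 and 2.09% of all genes passing. At day 4 the count was again 0, with 1 member below 0.05 unadjusted and 8.95% of all genes passing. The share of all genes below 0.05 unadjusted was not counted, so the unadjusted counts of members have no background beside them. After median of ratios scaling, which divides each library by the median ratio of its TPM to the geometric means of the genes, Nanog passed at day 0 (0.19, adjusted p = 0.0067; range over 19 alternatives 0.0067 to 0.08). At day 4 Nanog (0.29, adjusted p = 2.6e-04) and Pou5f1 (0.33, adjusted p = 0.0069) then passed as well, over ranges of 2.6e-04 to 0.47 and 0.0069 to 0.26.

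In the rescue comparisons 1 member passed, Nanog at day 4. Counts below 0.05 unadjusted are given for the members only. The shares of all genes beside them are at the adjusted threshold, so the unadjusted counts have no background. Within si-Rsl24d1 at day 0, rescued cells differed by 0.12 in Pou5f1, 0.09 in Nanog, 0.04 in Utf1, -0.16 in Sox2 and -0.35 in Sall4, and 0 of 5 passed (4 below 0.05 unadjusted), where 15.3% of all genes passed. The median of all genes was -0.11 in that comparison, and after median of ratios scaling, which moved the share of higher genes among those that passed from 20.1% to 51.9%, Pou5f1 (0.25) and Nanog (0.22) passed as higher. With the deposited scaling, leaving out si-Rsl24d1 library 3 with rescue made Sall4 pass (-0.51). Within si-CTL at day 0, 0 of 5 members passed in limma (4 below 0.05 unadjusted), and 0.0122% of all genes did. The median of all genes was -0.12 there, beside -0.12 for Nanog, -0.16 for Utf1, -0.18 for Sox2 and -0.03 for Pou5f1. Sall4 read 6.13, 5.71 and 5.69 without and 5.49, 5.29 and 5.20 with rescue in si-CTL cells, without overlap, at a difference of -0.52 with an interval from -0.82 to -0.22 (adjusted p = 0.026). Over 13 alternatives this difference ran from -0.60 to -0.37 and passed in 0 (limma adjusted p from 0.016 to 0.16). At day 4, Nanog was the only member that passed, within si-Rsl24d1: it read 8.17, 8.22 and 8.28 without and 8.44, 8.42 and 8.39 with rescue (0.20 ± 0.04, limma adjusted p = 0.0021). That is 1 of 5 members against 5.17% of all genes, and the call was lost without si-Rsl24d1 library 1 or 2 with rescue or library 2 without rescue, with differences of 0.18, 0.19 and 0.20 and adjusted p of 0.012, 0.01 and 0.01, and with only the groups compared (0.20, adjusted p = 0.086; range over 13 alternatives 7.3e-06 to 0.086). Within si-CTL at day 4, 0 of 5 passed (3 below 0.05 unadjusted) against 10.2% of all genes. The median of all genes was 0.09 there, and after median of ratios scaling, which moved the share of higher genes from 86.8% to 51.7%, Pou5f1 (-0.26) and Utf1 (-0.30) passed as lower with rescue.

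After 4 days of RA, Utf1 fell with si-Rsl24d1 both without and with rescue, and no other member passed. Without rescue Utf1 read 7.56, 7.57 and 7.48 with si-CTL and 7.07, 7.15 and 7.20 with si-Rsl24d1, at 75.8% of control (-0.40 ± 0.05, limma adjusted p = 1.2e-05). With rescue it read 7.39, 7.38 and 7.33 against 7.12, 7.06 and 6.88, at 78.6% of control (-0.35 ± 0.05, limma adjusted p = 1.7e-04). In both settings each si-Rsl24d1 library lay below each si-CTL library, at Rsl24d1 levels of 97.2% and 111% of control. The latter value can include the ectopic transcript. The 1 of 5 members that passed compares with 30.9% of all genes without rescue and 5.87% with rescue, and 0 of 5 were called changed against 1.63% and 0.73%.

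Pou5f1 at day 4 read 9.01, 9.10 and 8.96 with si-CTL and 8.97, 8.96 and 9.02 with si-Rsl24d1 without rescue, which overlap (-0.04, interval -0.12 to 0.04), and with rescue the difference was 0.08 (interval 0.00 to 0.16). Nanog read 8.34, 8.33 and 8.30 against 8.17, 8.22 and 8.28 without rescue, a difference of -0.10 that did not pass (limma adjusted p = 0.037). Sox2 differed by 0.07 without and -0.02 with rescue. All genes tested had a median difference of 0.13 in the comparison without rescue, and of the genes that passed there 80.5% were higher as deposited and 50.2% after median of ratios scaling. On that scale Pou5f1 (-0.20, adjusted p = 0.0042) and Nanog (-0.26, adjusted p = 1.4e-06) passed as lower without rescue, and Utf1 stood at -0.56. Over all 13 alternatives the adjusted p ran from 0.0042 to 0.98 for Pou5f1 and from 1.4e-06 to 0.13 for Nanog. Sall4 read 4.56, 4.63 and 4.64 with si-CTL and 4.68, 5.14 and 5.22 with si-Rsl24d1, with the first si-Rsl24d1 library close to the si-CTL libraries. Its difference of 0.41 ± 0.14 did not pass (limma adjusted p = 0.027), while without that library it was 0.57 (adjusted p = 0.002; range over 13 alternatives 0.002 to 0.14). With rescue Sall4 differed by -0.01 (interval -0.31 to 0.29).

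**Figure D2:**
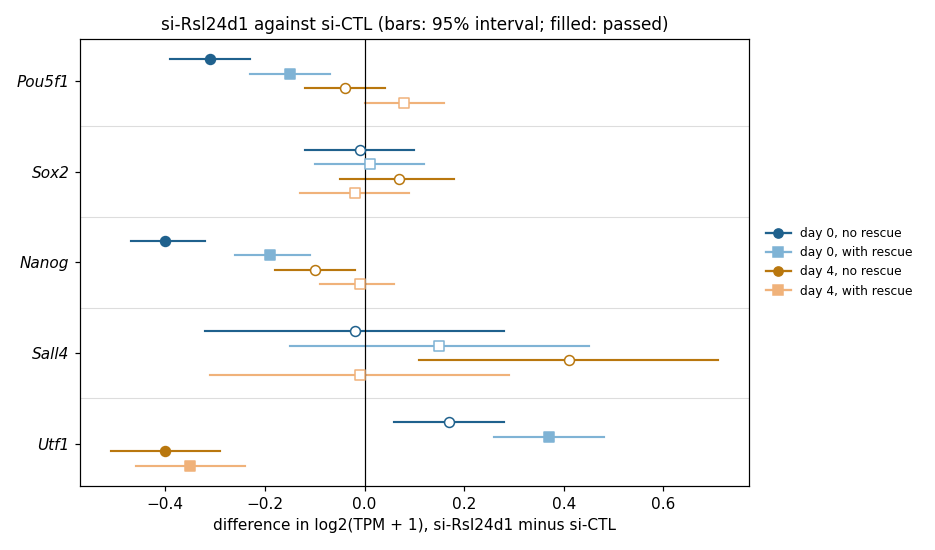
Difference in log2(TPM + 1) between si-Rsl24d1 and si-CTL (horizontal axis) for each factor on day 0 and day 4, without and with rescue, with 95% intervals from limma; filled symbols passed at an adjusted p below 0.01. Utf1 lies right of 0 on day 0 (0.17 and 0.37) and left of 0 on day 4 (-0.40 and -0.35), and Pou5f1 and Nanog are farthest left on day 0 without rescue (-0.31 and -0.40).

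The difference between the days was tested directly. For Utf1 the siRNA effect was 0.57 ± 0.07 lower at day 4 than at day 0 without rescue (-0.57, limma adjusted p = 6.5e-06) and 0.72 ± 0.07 lower with rescue (-0.72, limma adjusted p = 9.7e-07), and it passed in all 19 alternatives of each test, at -0.73 to -0.51 and -0.77 to -0.65. For Pou5f1 and Nanog the effect without rescue was less negative at day 4, by 0.27 ± 0.05 (limma adjusted p = 5.2e-04) and 0.30 ± 0.05 (limma adjusted p = 2.0e-04). The median of all genes in this test was 0.14, and after median of ratios scaling, with 53.7% in place of 71.4% of the genes that passed being higher, the same differences were 0.11 (adjusted p = 0.26) and 0.14 (adjusted p = 0.012), which did not pass, whereas they passed in the other 18 of 19 alternatives. With rescue, Pou5f1 differed by 0.23 ± 0.05 (limma adjusted p = 0.0046, lost in 7 of 19 alternatives) and Nanog by 0.17 ± 0.05 (limma adjusted p = 0.031). In all, 3 of 5 members passed without rescue, where 30.9% of all genes passed, and 2 of 5 with rescue, where 9.95% did. Sox2 differed between the days by 0.08 (interval -0.08 to 0.23) and -0.03 (interval -0.18 to 0.13).

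The differences between the days were larger in size than those between the siRNAs for all 5 members in each arm. RA, 4 days of culture and, per the study's text, removal of LIF changed together between the days and cannot be told apart here. Between day 0 and day 4 Nanog rose and Pou5f1, Sox2, Sall4 and Utf1 fell in each of the 4 arms (si-CTL and si-Rsl24d1, without and with rescue), and all 5 members passed each time. The share of all genes that passed was 60.9%, 55.8%, 59.2% and 58.1% in these arms in the order si-CTL without rescue, si-Rsl24d1 without rescue, si-CTL with rescue and si-Rsl24d1 with rescue, so passing alone says little here. Of the genes that passed, 39.7%, 52.7%, 62.1% and 55.7% were higher at day 4 as deposited and 50.0%, 50.4%, 50.8% and 50.1% after median of ratios scaling, under which all members kept their direction and passed. Members called changed numbered 2, 2, 2 and 3 of 5, against 15%, 14.1%, 15.6% and 14.9% of all genes. The 4 arms use separate libraries, and each shares its libraries with the siRNA comparisons above.

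Nanog more than doubled in level in 3 of the arms. In si-CTL cells without rescue it went from 7.56, 7.53 and 7.49 to 8.34, 8.33 and 8.30, which is from 184 to 319 TPM (0.79 ± 0.04, limma adjusted p = 5.2e-13). In si-Rsl24d1 cells without rescue it went from 7.15, 7.17 and 7.08 to 8.17, 8.22 and 8.28, which is from 139 to 298 TPM (1.09 ± 0.04, limma adjusted p = 3.8e-15). With rescue the differences were 1.03 ± 0.04 in si-CTL cells and 1.20 ± 0.04 in si-Rsl24d1 cells. No day 4 library of any arm came near the day 0 range, and the direction held in all 13 alternatives of every arm (0.78 to 1.22).

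Pou5f1 fell in every arm. In si-CTL cells without rescue it went from 10.10, 10.13 and 10.13 to 9.01, 9.10 and 8.96, leaving 46.7% of the day 0 level (-1.10 ± 0.04, limma adjusted p = 4.2e-15). In the other arms 56.2% remained in si-Rsl24d1 cells without rescue, 43.7% in si-CTL cells with rescue and 51.3% in si-Rsl24d1 cells with rescue. The day 4 levels of the arms overlapped. The si-Rsl24d1 arms lost less than the si-CTL arms and had started lower, which is the same contrast as the siRNA effect on each day.

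Sox2 fell less than Pou5f1. It went from 8.20, 8.14 and 8.10 to 7.39, 7.44 and 7.44 in si-CTL cells without rescue, leaving 60.3% (-0.72 ± 0.05, limma adjusted p = 3.4e-10), and 63.8% remained with si-Rsl24d1. In the rescued arms, which began at 7.91 to 8.05, 70.6% and 69.3% remained. The noncoding Sox2ot, at 0.937 to 1.49 TPM as group means, was lower at day 4 in si-CTL cells without rescue (-0.31 ± 0.08, limma adjusted p = 0.0026) and did not pass in the other 3 arms (-0.17, -0.19 and 0.12).

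Sall4 fell to 41.0% of its day 0 level in si-CTL cells without rescue, from 6.13, 5.71 and 5.69 to 4.56, 4.63 and 4.64 (-1.24 ± 0.14, limma adjusted p = 2.5e-07). In si-CTL cells with rescue it went from 5.49, 5.29 and 5.20 to 4.93, 4.73 and 4.94, which leaves 72.0% (-0.46 ± 0.14, limma adjusted p = 0.0081). This last call was lost in 7 of 13 alternatives, among them the fits without rescued si-CTL library 1 or 2 at day 0 or library 1, 2 or 3 at day 4, with differences from -0.60 to -0.38 and adjusted p from 9.0e-05 to 0.044. The si-Rsl24d1 arms kept 56.9% without and 63.2% with rescue.

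Utf1 fell in all arms and farther where Rsl24d1 had been targeted. It went from 8.02, 8.18 and 8.17 to 7.56, 7.57 and 7.48 in si-CTL cells without rescue, leaving 66.4% (-0.59 ± 0.05, limma adjusted p = 6.5e-09). In si-Rsl24d1 cells without rescue it went from 8.27, 8.30 and 8.32 to 7.07, 7.15 and 7.20, leaving 44.8% (-1.15 ± 0.05, limma adjusted p = 2.4e-13). With rescue 66.1% remained in si-CTL cells and 40.1% in si-Rsl24d1 cells. The siRNA groups were thus in one order on day 0 and in the other on day 4, and the tests between the days given above are the tests of this difference.

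**Figure D3:**
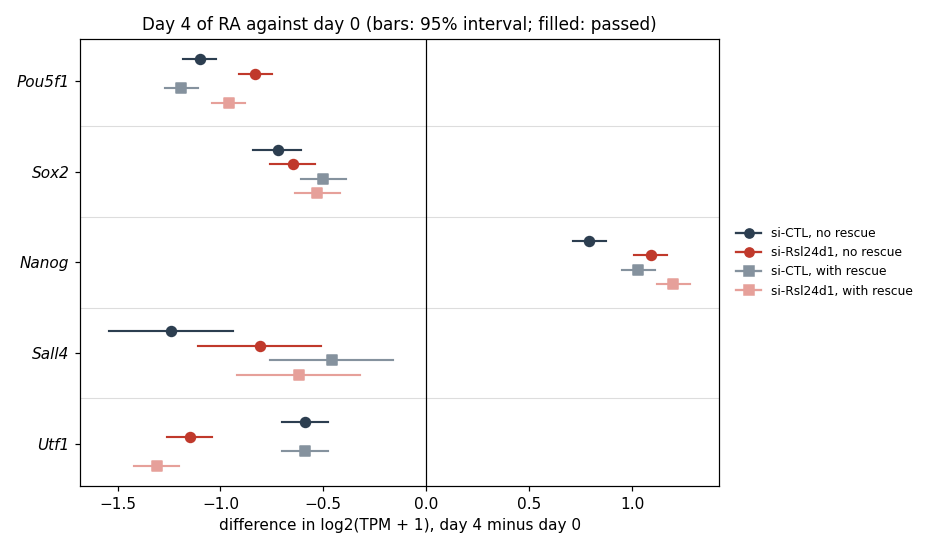
Difference in log2(TPM + 1) between day 4 of RA and day 0 (horizontal axis) for each factor in the 4 arms, with 95% intervals from limma; all symbols are filled because all passed. Nanog lies right of 0 (0.79 to 1.20) and the other factors left, with Utf1 at -0.59 in both si-CTL arms and at -1.15 and -1.31 in the si-Rsl24d1 arms.

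Ratios within a library do not depend on how libraries are scaled. Nanog stood at 14.8 to 17.1% of Pou5f1 (in TPM) in the 12 day 0 libraries and at 57.3 to 73.7% in the 12 day 4 libraries, with medians of 15.6% and 65.3%. Within day 0 the Nanog share was 16.5% ± 0.6 with si-CTL and 15.5% ± 0.636 with si-Rsl24d1 without rescue (SD, n = 3), so that Pou5f1 and Nanog were lower in nearly the same proportion. Sox2 moved from a median of 25.3% of Pou5f1 on day 0 to 35.0% on day 4. Sall4 stayed at a few percent of Pou5f1, with medians of 4.55% and 5.62%.

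The Utf1 share showed the exchange between the days on this scale too. On day 0 the libraries stood at 23.7 to 25.8% of Pou5f1 with si-CTL and 34.2 to 35.2% with si-Rsl24d1 without rescue, and at 22.7 to 23.1% and 32.4 to 33.5% with rescue. On day 4 the means were 35.7% ± 0.937 with si-CTL and 27.8% ± 1.02 with si-Rsl24d1 without rescue, and 34.6% ± 2.02 and 25.7% ± 1.96 with rescue (SD, n = 3). In each of these 4 settings the libraries of the siRNA groups did not overlap. A share moves with Pou5f1 as well as with Utf1. At day 0 without rescue Pou5f1 stood at 80.8% and Utf1 at 112% of si-CTL, where Utf1 did not pass. With rescue they stood at 90.0% and 129%. At day 4 they stood at 97.2% and 75.8% without rescue and at 106% and 78.6% with rescue. With 3 libraries against 3 an exact permutation test cannot give a p below 0.1, so none is given for the shares.

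**Figure D4:**
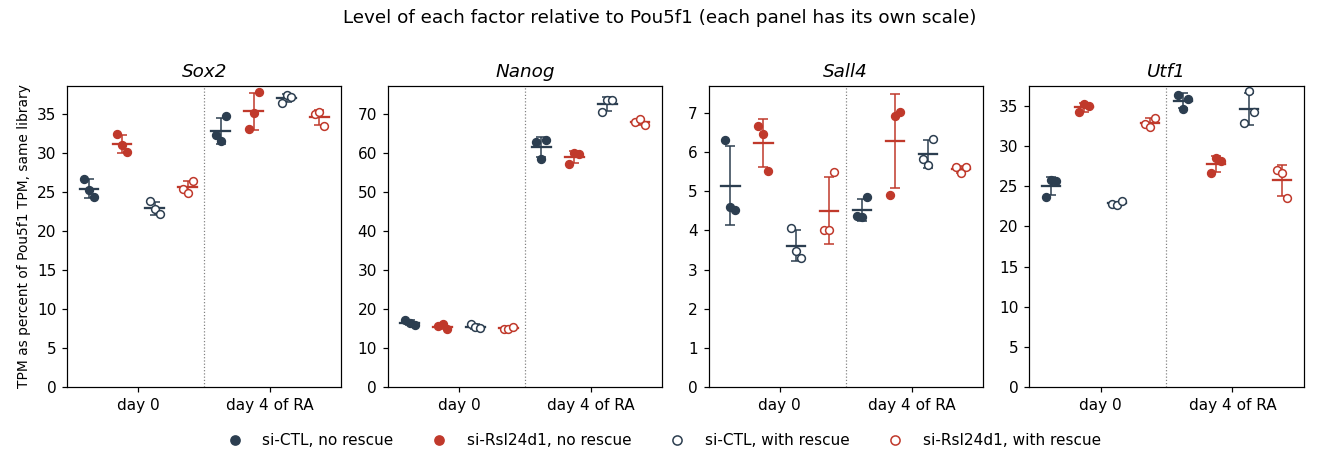
TPM of Sox2, Nanog, Sall4 and Utf1 as a percent of the Pou5f1 TPM of the same library (vertical axis, from 0), with 1 point per library (n = 3 per group), a bar at the mean and error bars of 1 SD. Nanog moves from 14.8 to 17.1% on day 0 to 57.3 to 73.7% on day 4, and the Utf1 groups of the siRNAs exchange places between the days.

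Added up, the 5 factors made up 1913 ± 11.0 TPM in si-CTL cells at day 0 without rescue and 1217 ± 34.5 TPM at day 4 (SD, n = 3). With si-Rsl24d1 the sums were 1687 ± 8.45 and 1153 ± 47.9 TPM. Pou5f1 supplied 58.1% of the sum in si-CTL cells and 53.3% in si-Rsl24d1 cells at day 0, and 42.7% and 43.8% at day 4. In bulk RNA, fewer cells with a factor and less RNA of it per cell cannot be told apart.

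The genes around the factors were read from lists written from general knowledge. The first held 26 genes taken as targets of OCT4, SOX2 or NANOG, and the direction of their regulation was not tested. With si-Rsl24d1 at day 0 without rescue 16 of 26 fell, 3 rose and 7 did not pass, where 16.1% of all genes fell and 14.3% rose, with a median of -0.45 beside -0.01 for all genes. Those that fell farthest were Tcl1, an AKT coactivator (-1.25 ± 0.06), Nr0b1, an orphan nuclear receptor (-1.14 ± 0.08), and Esrrb, a nuclear receptor of naive ESCs (-1.09 ± 0.08). The 3 that rose were Otx2, a factor of the post-implantation epiblast (0.71 ± 0.05), Lefty1, a NODAL antagonist (0.65 ± 0.05), and Phc1, a Polycomb subunit (0.29 ± 0.07). With rescue 8 fell and 2 rose, against 5.64% and 8.1% of all genes (median -0.19), and Tcl1 (-0.69), Esrrb (-0.65) and Nr0b1 (-0.55) again stood lowest.

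At day 4 without rescue 11 of 26 targets rose under the siRNA and 2 fell, Spp1 (-0.30 ± 0.04) and Gdf3 (-0.25 ± 0.04), where 24.9% of all genes rose and 6.04% fell. The list median was 0.21 beside 0.13 for all genes, and after median of ratios scaling 5 rose and 6 fell (median 0.05), so the direction of this list at day 4 rests on the scaling. The largest rises were in Trim71, a translational repressor of ESCs (0.68 ± 0.17), Rest, a repressor of neuronal genes (0.59 ± 0.17, not passed after median of ratios scaling), and Tbx3, a T-box factor (0.59 ± 0.10). With rescue 1 of 26 passed, Fbxo15, an F-box protein (0.33 ± 0.05), where 2.33% of all genes rose and 3.53% fell, and after median of ratios scaling 4 rose and 0 fell. In the day 0 comparison without rescue median of ratios scaling gave 15 lower and 4 higher. Between day 0 and day 4, 21 of 26 fell in si-CTL cells without rescue, 12 with si-Rsl24d1, and 17 and 11 in the rescued arms, while 4, 7, 4 and 6 rose. In the same 4 arms 36.7%, 26.4%, 22.4% and 25.8% of all genes fell and 24.1%, 29.4%, 36.8% and 32.4% rose. Phc1 (-2.07 ± 0.07), Klf5 (-1.86 ± 0.14) and Tdgf1, a NODAL coreceptor (-1.69 ± 0.03), fell farthest in si-CTL cells without rescue. Spp1 (1.34 ± 0.04), which encodes osteopontin, Dppa5a (1.03 ± 0.07), an RNA-binding protein of ESCs, and Fbxo15 (0.52 ± 0.05) rose there beside Nanog. The fourth that rose in that arm was Tcl1, which rose by 0.44 ± 0.06 in it and by 1.51 ± 0.06 and 1.11 ± 0.06 in the si-Rsl24d1 arms without and with rescue.

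The second list held 26 protein partners of the factors, such as NuRD and SWI/SNF subunits. At day 0 without rescue 6 fell and 2 rose with si-Rsl24d1, which is 23.1% and 7.69% of the list beside 16.1% and 14.3% of all genes (median -0.11), led by Parp1 (-0.40 ± 0.05), Wdr5 (-0.31 ± 0.04) and Trim28, a corepressor (-0.30 ± 0.05). The 2 that rose were the NuRD subunits Mta3 and Rbbp7 (0.16 ± 0.04 each). With rescue the deacetylases Hdac2 (-0.21 ± 0.04) and Hdac1 (-0.17 ± 0.04) were the only ones that passed, 7.69% of the list and close to the 5.64% of all genes that fell. At day 4 without rescue 14 of 26 rose and 0 fell (median 0.28 beside 0.13 for all genes), where 24.9% of all genes rose, and after median of ratios scaling 8 rose and 3 fell (median 0.12). Those that rose were led by Gatad2b (0.67 ± 0.15), Rif1 (0.58 ± 0.12) and Ep300 (0.56 ± 0.14). With rescue 1 passed, Rbbp7 (-0.21 ± 0.04). Between the days 21, 14, 8 and 10 of the 26 fell in the 4 arms, or 80.8%, 53.8%, 30.8% and 38.5% beside 36.7%, 26.4%, 22.4% and 25.8% of all genes, and 3, 4, 6 and 5 rose. After median of ratios scaling 21, 19, 16 and 16 fell. Smarcd1, a SWI/SNF subunit, fell in every arm (-1.27, -0.94, -0.88 and -0.92), and Rbbp7 rose in every arm (0.46, 0.43, 0.65 and 0.38).

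**Figure D5:**
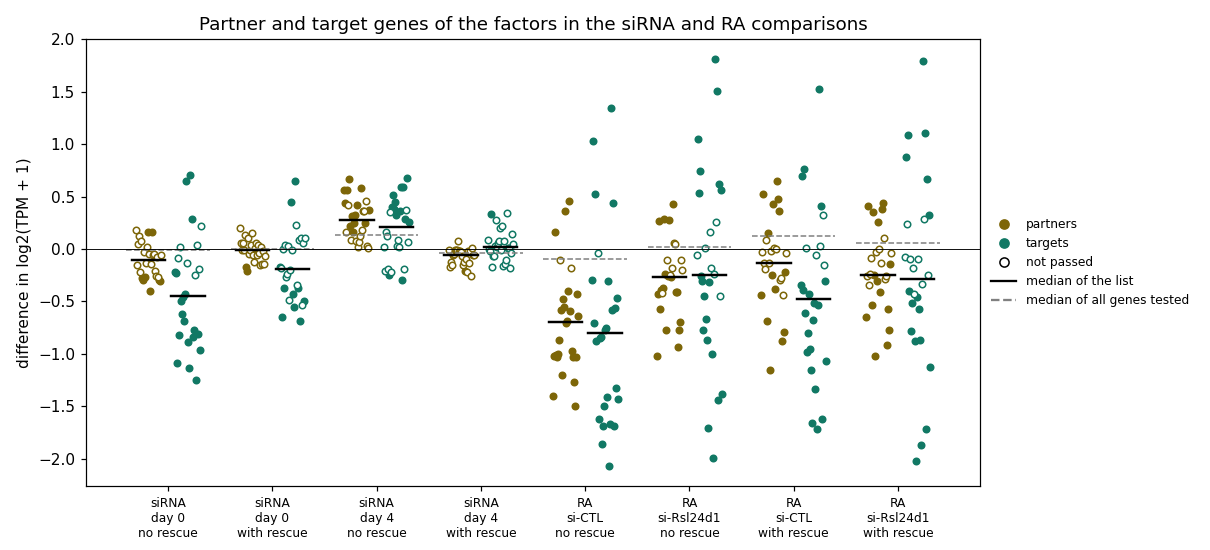
Difference in log2(TPM + 1) (vertical axis) of 26 partner and 26 target genes in the 4 siRNA and 4 RA comparisons, with 1 point per gene, filled where it passed; black bars are the list medians and dashed lines the medians of all genes tested. The targets lie lowest under the siRNA on day 0 without rescue (median -0.45) and above 0 on day 4 without rescue (median 0.21), where median of ratios scaling gives 0.05.

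Relatives of the factors were followed in the same way. With si-Rsl24d1 at day 0 without rescue, 14.3% of all genes rose and 16.1% fell. Of 15 genes with a POU name, among them Pou2af1, a coactivator without a POU domain that was too low to be tested, 7 were tested, and at day 0 without rescue Pou4f1 (1.18 ± 0.12) and Pou3f1 (0.92 ± 0.06) rose with si-Rsl24d1 while Pou4f2 (-0.84 ± 0.08), Pou2f2 (-0.63 ± 0.11) and Pou6f1 (-0.42 ± 0.09) fell. Pou3f1, the factor OCT6 of the post-implantation epiblast, fell between the days in all 4 arms (-2.01, -2.98, -1.57 and -2.61). Of 19 other SOX genes 13 were tested, and 5 rose and 0 fell with si-Rsl24d1 at day 0 without rescue (5 and 1 after median of ratios scaling), led by Sox4 (0.71 ± 0.11), Sox3 (0.51 ± 0.07) and Sox15 (0.49 ± 0.05). Sox15 rose between the days in the si-CTL arm without rescue by 2.25 ± 0.05, while Sox2 fell there. Of the 3 other SALL genes, Sall2 (1.35 ± 0.09) and Sall3 (0.50 ± 0.08) rose with si-Rsl24d1 at day 0 without rescue, where Sall4 differed by -0.02. After median of ratios scaling 2 of the 3 rose and 1 fell in that comparison. Sall1 fell between the days in all arms (-1.36, -1.09, -0.84 and -0.86).

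Markers of other cell types moved between day 0 and day 4 beside the factors, where 24.1%, 29.4%, 36.8% and 32.4% of all genes rose in the 4 arms. In the same arms 36.7%, 26.4%, 22.4% and 25.8% of all genes fell. Of 12 endoderm markers 8 were tested, and 7, 8, 7 and 8 of them rose in the 4 arms while Lama1 fell in si-CTL cells without rescue (-0.59), with the summed level of the list at 24.9 to 37.7 TPM in the day 0 libraries and 57.8 to 154 TPM in the day 4 libraries. At day 4, where 24.9% of all genes rose with si-Rsl24d1 without rescue and 2.33% with rescue, all 8 were higher with si-Rsl24d1 without rescue (110 to 154 TPM summed, against 57.8 to 69.6 with si-CTL), as they were after median of ratios scaling, in the comparison in which Utf1 was lower, and 3 of 8 with rescue, or 6 after that scaling (106 to 111 against 70.9 to 82.4). In the same comparison without rescue 6 of 9 fibroblast markers rose (summed means of 1250 against 638 TPM, 6 also after median of ratios scaling) and 7 of 9 trophectoderm markers (385 against 279 TPM, 5 after that scaling), and with rescue 4 and 3 rose. The sums rest mostly on single genes. Without rescue Col4a1 gave 81.3 of 135 TPM of the endoderm mean with si-Rsl24d1 and 37.1 of 62.2 TPM with si-CTL. Krt18 gave 265 and 198 TPM of the trophectoderm means. The defining genes Gata4, Gata6 and Sox17 were detected at 0.97 to 3.66 TPM as day 4 group means, and Ttr was at 0 in all day 0 groups. Of 10 fibroblast markers 9 were tested, and 7 to 8 rose and 1, Thy1, fell in each arm, with sums of 159 to 325 TPM on day 0 and 621 to 1354 TPM on day 4, of which Acta2 alone gave 306 to 657 TPM as group means. Neural markers did not rise as a group: of 7 tested, 1 or 2 rose and 3 or 4 fell in each arm, with sums of 81.1 to 130 TPM on day 0 and 39.1 to 62.7 TPM on day 4. Under the siRNA at day 0 without rescue, 3 of the 7 neural markers rose and 1 fell. In that comparison 14.3% of all genes rose and 16.1% fell. With rescue 1 rose and 1 fell, against 8.1% and 5.64% of all genes. Neurod1 was higher with si-Rsl24d1 at day 0, at 30.2 TPM without and 16.9 TPM with rescue against 4.19 and 3.39 TPM with si-CTL. Pax6 was lower, at 4.36 TPM without and 5.17 TPM with rescue against 8.2 and 6.99 TPM with si-CTL. Of 10 trophectoderm markers 9 were tested, and 5, 5, 6 and 5 rose while 3, 2, 3 and 3 fell, among them Cdx2 and Ascl2 in every arm (-0.75 and -0.69 in si-CTL cells without rescue). Of 10 mesoderm markers found, 7 were tested, and 1 or 2 rose and 2 fell in each arm, with the primitive streak gene T at 6.46 to 12.8 TPM as day 0 group means and 0.412 to 0.563 TPM on day 4. Of the 10 ESC markers, 9 of which are also in the target list, 7, 3, 6 and 2 fell and 2, 5, 2 and 4 rose. The part of these other cell types in the changes of the 5 factors was not tested.

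The genes whose 8 group means followed each factor most closely were found by the root mean square difference of the centred profiles, in log2 units over the 8 groups. For Pou5f1 these were Ecsit (0.0505), Tdh (0.0508) and Upk2 (0.0513), against 0.562 for the median gene. For Sox2 they were Zfyve28 (0.0311), Zfp747 (0.0319) and Grk6 (0.0319). For Nanog the nearest was Eif2s2 (0.0315), with levels from 8.22 to 9.60, followed by Prxl2a (0.0583) and Aig1 (0.0638). For Sall4 they were Rapgef1 (0.0484), Spred2 (0.0678) and Atp13a1 (0.0737), and for Utf1 Tlcd1 (0.0885), Stac2 (0.0888) and Nkx6-2 (0.0918). Among the factors the closest pairing was Sox2 with Sall4 (0.16), Pou5f1 lay at 0.236 from Utf1 and 0.243 from Sox2, and Nanog lay at 0.825 to 1.03 from the other 4.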

How the data were processed

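RNA-seq was analysed from 1 deposited table with 24 sample columns. Per the study's methods, Salmon gave transcript abundances that the authors collapsed to genes and deposited as log2(TPM + 1). TPM are scaled to a fixed total by the authors, so depth is unknown and no count test was run. The labels list STAR 2.7.8a, Salmon 1.4.0 and the human build GRCh38, although the samples are mouse; the methods name other versions and GRCm38. Labels and methods also differ on the kit (poly-A or stranded total RNA), the medium, LIF during RA, and 48 or 72 h after transfection. The 72 h of the protocol is shorter than 4 days of RA, so the timing of RA relative to the transfection is not settled. Because TPM have a fixed total, a shift of many genes moves the others.

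The 16447 genes whose average over all libraries reached 0.5 were fitted in limma 3.58.1 (R 4.3.3) with 8 group means, an intensity trend and no replicate block, two-sided, adjusted within each comparison. Tables and figures used Python 3.11.15, pandas 2.3.3 and matplotlib 3.10.9. The fit was tested on simulated data. The same-numbered libraries did not deviate together, so numbers were not taken as pairs. The most similar pair of libraries correlated at 0.99116, and 0 pairs were identical. Alternatives were a pseudocount of 0.1 or 2, no filter or a filter of 1.5, only the groups compared, the replicate block, median of ratios scaling, no fold threshold and each library left out in turn. Positions came from gencode vM21, in which 52259 of the 54242 symbols were found.

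The members, gene lists, thresholds and tests were chosen with earlier results of these data known. Named genes were the members, Rsl24d1, Sox2ot, the 3 most alike genes per member and, of each list, up to 3 rises and 3 falls that passed; the text gives a selection of them. Single genes named only with levels (Gata4, Gata6, Sox17, Ttr, Acta2, Col4a1, Krt18, Neurod1, Pax6, T, Dppa5a, Zfp42) were chosen after their values were seen.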

Additional observations from a re-analysis of the deposited data

Results flagged for a closer look

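The effect of si-Rsl24d1 against si-CTL differed between day 0 and day 4 for 3 of the 5 factors, by the interaction test in limma over 16447 genes without rescue, where 30.9% of all genes passed, and for 2 of 5 with rescue, where 9.95% did. After median of ratios scaling 1 of 5 passed without rescue. Utf1 had the larger of these differences. Its siRNA effect was 0.17 on day 0 and -0.40 on day 4 without rescue, a difference of -0.57 ± 0.07, and 0.37 and -0.35 with rescue, a difference of -0.72 ± 0.07. Pou5f1 had effects of -0.31 and -0.04 without rescue, a difference of 0.27 ± 0.05, and of -0.15 and 0.08 with rescue, a difference of 0.23 ± 0.05 that was lost in 7 of 19 alternatives. Nanog had effects of -0.40 and -0.10 without rescue, a difference of 0.30 ± 0.05. The Pou5f1 and Nanog differences without rescue did not pass after median of ratios scaling. Rsl24d1 itself was at 25.3% of control on day 0 and 97.2% on day 4 without rescue.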

How the results depend on the processing

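No member difference that passed as reported changed sign under an alternative. Of the differences of single members, 579 kept their side of the threshold with 1 library left out, 2 gained and 19 lost it, and under the other alternatives 538 kept, 10 gained and 12 lost it. The count of members that passed moved as follows. Fitting only the groups compared left 1 for the siRNA effect on day 0 with rescue, 0 for that on day 4 with rescue (Utf1 at -0.35, adjusted p = 0.019), 0 for the rescue effect on day 4 with si-Rsl24d1 and 1 for the siRNA by day interaction with rescue. Median of ratios scaling gave 3 for the siRNA effect on day 4 without rescue, 2 for the rescue effect on day 0 with si-Rsl24d1 and 2 on day 4 with si-CTL, 1 and 2 for the siRNA by rescue interaction on day 0 and day 4, and 1 for the siRNA by day interaction without rescue. After that scaling 4808 of 16447 genes passed for the siRNA effect on day 4 without rescue. For the rescue effect 2541 passed on day 0 with si-Rsl24d1 and 1845 on day 4 with si-CTL. The cause of these moves was not tested. With no fold threshold the members called numbered 2, 3, 1 and 1 in the siRNA comparisons in the order of the report, 5 in each RA arm, 1 for the rescue effect on day 4 with si-Rsl24d1, and 3 and 2 in the siRNA by day interactions, by construction the counts that passed.

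With 1 library left out, 1 to 2 members passed for the siRNA effect on day 4 without rescue (2 without si-Rsl24d1 library 1), 0 to 1 for the rescue effect on day 0 and on day 4 with si-Rsl24d1, and 1 to 2 for the siRNA by day interaction with rescue (1 without si-Rsl24d1 library 1 at day 4, si-CTL library 2 or 3 at day 4, si-Rsl24d1 library 1 or 2 at day 0, or si-CTL library 2 at day 0). In the RA effect with si-Rsl24d1 without rescue 2 to 4 members were called (4 without si-Rsl24d1 library 3 at day 4). The replicate block, which is no pairing here (mean correlation of same-numbered libraries -0.0173, over 0.1 in 4 of 84 pairs), left 2 members passed for the siRNA effect on day 0 with rescue (Pou5f1 at -0.15, adjusted p = 0.011; range over alternatives 0.0056 to 0.036) and 4 for RA with si-CTL and rescue (Sall4 at -0.46, adjusted p = 0.012; range 9.0e-05 to 0.044). It changed no other call of a member. Among all genes, fitting only the groups compared lowered the counts that passed from 2261 to 682, from 5087 to 814 and from 965 to 452 in the siRNA comparisons on day 0 with rescue and on day 4 without and with rescue, from 2511 to 653 and from 850 to 9 in the rescue comparisons with si-Rsl24d1 on day 0 and day 4, and from 343 to 78 and from 1472 to 329 in the siRNA by rescue interactions on day 0 and day 4. The latter gave 733 with no filter, 831 with the replicate block and 764 after median of ratios scaling, and the rescue effect on day 4 with si-CTL went from 1677 to 820 with no filter and 1043 with the block. The 2 genes of the rescue effect on day 0 with si-CTL became 4 with no filter or only the groups compared and 0 with the block or median of ratios scaling. With 1 library left out, the count fell lowest to 3031 for the siRNA effect on day 4 without rescue (si-Rsl24d1 library 2), 503 for that with rescue (si-Rsl24d1 library 2), 1204 and 405 for the rescue effect with si-Rsl24d1 on day 0 (rescued library 1) and day 4 (unrescued library 2), 55 for that with si-CTL on day 4 (unrescued library 1), and 183 and 345 for the siRNA by rescue interactions (unrescued si-Rsl24d1 library 3 and 2), and rose to 1375 for the rescue effect with si-Rsl24d1 and 4418 for that interaction on day 4 without unrescued si-Rsl24d1 library 1. Median of ratios scaling moved the share of higher genes among those that passed from 39.8% to 59.1% for the siRNA effect on day 4 with rescue, from 18.1% to 41.2% for the rescue effect on day 4 with si-Rsl24d1, from 7.81% to 49.3% for the siRNA by rescue interaction on day 4 and from 31.4% to 47.6% for the siRNA by day interaction with rescue. Depth is unknown, so its part in these limits cannot be given.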
